A study of Mus musculus with 38 samples.

Results

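Stromal vascular cells of epididymal fat were compared between mice on a high fat diet (HFC) and mice on a low fat diet (LFC) in the first weeks of feeding. The comparison uses the arrays titled HFC and LFC at day 6 (D6), day 10 (D10), day 14 (D14) and week 0 (W0), which are 8 of the 38 arrays of the series and form 4 pairs, with 1 array per diet at each time point. All 8 arrays came from C57BL/6J mice put on their diet after weaning, with 10% of calories from fat in LFC and 60%, with more sucrose, in HFC. None of these mice received the botanical formulation that other arrays of the series test. The labels name no genetic change and no sex, and call the material epididymal infiltrating macrophages (SVCs). They do not say how many mice 1 array stands for. The series design text speaks of 3 biological replicates, but these time points hold 1 array per diet, so every test here measures the spread between time points. Day 14 and week 0 fall on the same elapsed day in the time scale of the study.

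Fat tissue is held together by its stromal vascular fraction, a mixture of macrophages and other leukocytes, fibroblast-like progenitors, endothelial cells of the vessels and mural cells, while the lipid-filled adipocytes are normally floated off when the fraction is made. The epididymal fat pad lies against the epididymis and testis and is covered by mesothelium, a sheet of epithelial cells that lines the abdominal cavity. Feeding a high fat diet is known to enlarge adipocytes, to change lipid synthesis in them and, over weeks, to draw macrophages into this pad. In RNA from mixed cells, fewer cells of a type and less RNA per cell cannot be told apart.

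Each value below is a level, the log2 processed signal of a probe minus the log2 75th percentile of all non-control spots of its array, so that 0 is a bright probe and a probe near background lies at about -6 to -9. A probe was tested where the scanner software called it well above background on at least 2 of the 4 arrays of a diet, which 32751 of 40628 probes were. The HFC array was the brighter of each pair. The 75th percentile was 229 scanner units in LFC and 675 in HFC at D6, 262 and 936 at D10, 672 and 1718 at D14, and 1534 and 1983 at W0. The mean difference was 1.28 log2 units (SD 0.64, n = 4 pairs). An exact test that flips signs over the pairs, two-sided, gave p = 0.125, and 4 pairs can give no smaller value. The share of spots well above background was also higher in HFC in every pair, between 64.5% and 73.5% in LFC and between 73.7% and 81.8% in HFC. The lowest level well above background therefore lay higher on each LFC array (from -5.94 to -8.63) than on its HFC partner (from -6.93 to -9.31). HFC D10 stood apart in 1 more way: 922 of its spots carried the software's outlier mark, against 31 to 98 on the other 7 arrays, and its 4 probes for Xist, the RNA of the inactive X chromosome of female cells, were well above background there (levels 0.49, -1.87, -3.81 and -6.22) and on none of the other 7 arrays. Ddx3y, Eif2s3y and Kdm5d, genes of the Y chromosome, were well above background on all 8.

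The largest differences of the first 10 days lay in markers of the tissues around or beside the fat pad, and they came from the LFC arrays of D6 and D10. Mesothelial markers, measured by 13 genes, had a mean level of -3.77 on LFC D6 and -4.48 on LFC D10, against 1.69 and 1.43 on the LFC arrays of D14 and W0. On the 4 HFC arrays the same mean lay between 1.49 and 2.83. Wt1, a transcription factor of mesothelium and of visceral fat progenitors, was at -7.06, -7.20, 0.52 and 0.13 in LFC at D6, D10, D14 and W0, and at 1.56, 1.18, 0.09 and 1.05 in HFC. Msln, the mesothelial surface protein mesothelin, was at -5.84, -4.28, 3.38 and 3.38 in LFC and at 4.36, 3.20, 3.18 and 4.42 in HFC. Both genes were low on the same 2 LFC arrays alone, and at D14 and W0 the diets differed by about 1 log2 unit or less. Upk3b, a uroplakin of mesothelium, had the same form, at -7.08, -7.44, 0.57 and 0.53 in LFC and 2.72, 0.88, 1.23 and 2.16 in HFC, a W0 difference of 1.63. Wt1 and Upk3b were not well above background on LFC D6 and D10.

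**Figure D1:**
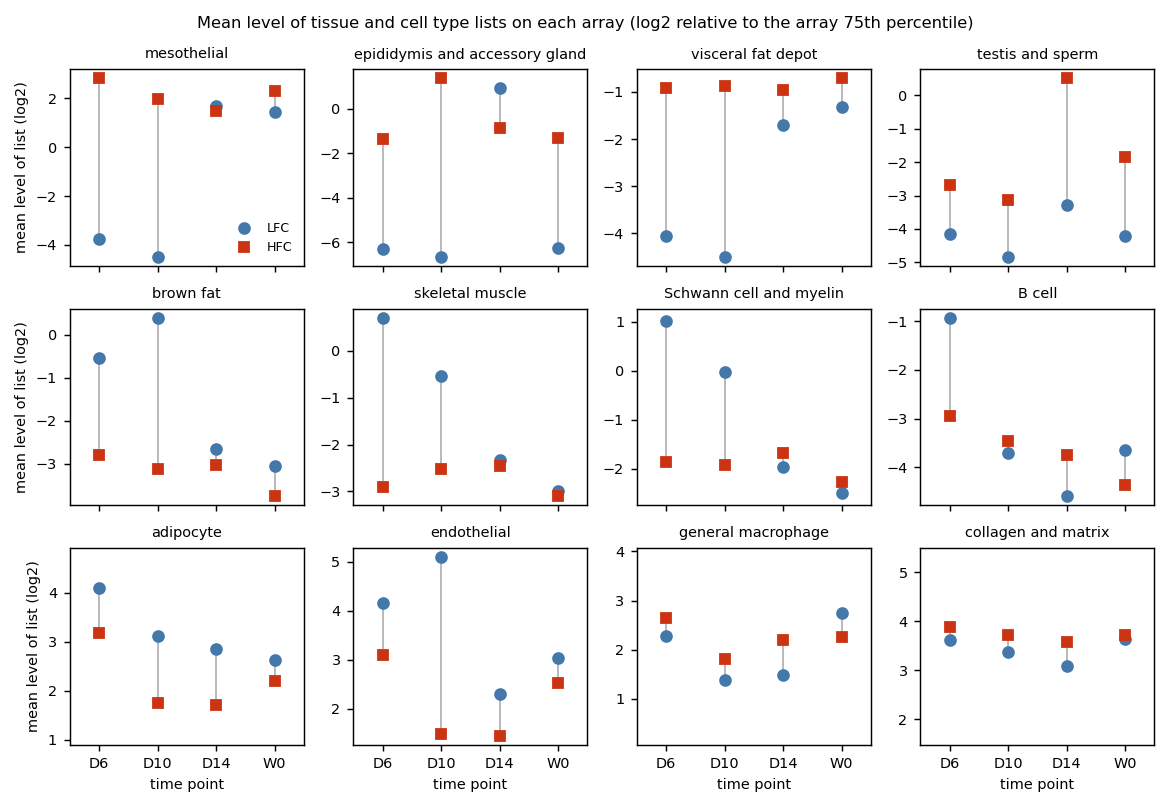
Mean level of 12 marker lists, 1 per panel, on each of the 8 arrays (y axis, log2 relative to the 75th percentile of the array, with its own range in each panel) at D6, D10, D14 and W0 (x axis), where blue circles are LFC, red squares HFC and a grey line joins a pair. The mesothelial mean is -3.77 and -4.48 on LFC D6 and D10 and at least 1.43 on the other 6 arrays, while the brown fat mean is highest on these same 2 arrays (-0.54 and 0.39).

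The visceral fat list (7 genes), which shares Wt1 and Bnc1 with the mesothelial list, moved with it. Its mean level was -4.06, -4.50, -1.70 and -1.33 in LFC and between -0.95 and -0.71 in HFC, and 4 of its 7 members were higher in HFC in 4 of 4 pairs, where 9.45% of all probes with values in all 4 pairs were. Tcf21, a transcription factor that marks progenitors of visceral fat, was at -6.42, -6.77, 0.57 and 0.81 in LFC and at 0.87, 0.61, 1.53 and 0.87 in HFC. Its diet difference was therefore over 7 log2 units at D6 and D10 and under 1 at D14 and W0. The LFC levels of Tcf21 at D6 and D10 lay below the lowest level well above background there (-5.94 and -6.20). The size of these 2 differences therefore rests on background levels. Of the 7 visceral genes, 2 were well above background on LFC D6 and 2 on LFC D10. The subcutaneous list went the other way. Of its 4 tested members, Tbx15 and Tbx5, transcription factors of subcutaneous and forelimb-level tissue, were lower in HFC in 4 of 4 pairs, where 13.9% of all probes were. Its median difference was -1.71, with Sfrp2, a secreted Wnt inhibitor, opposite in sign at 1.06. Sfrp2 was the only member well above background on all arrays, so the median rests on genes that were not.

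Brown fat genes were high on the LFC arrays that lacked the visceral markers. Ucp1, the uncoupling protein that lets brown fat mitochondria make heat, was at 3.83 on LFC D6 and 5.11 on LFC D10, and at -4.99 and -3.40 on LFC D14 and W0. On the HFC arrays it was at -2.46, -5.05, -5.42 and -5.62. Cidea, a lipid droplet protein of brown fat, was at 5.55, 6.08, 0.32 and -0.81 in LFC and at -0.59, -0.02, -0.61 and -2.76 in HFC. Of the 16 brown fat genes tested, 8 were lower in HFC in 4 of 4 pairs (13.9% of all probes) and none was higher in all 4, and the median difference was -1.70, -2.40, -0.41 and -0.73 at D6, D10, D14 and W0. The lower HFC value of Ucp1 held at all 4 time points, but the drop from D6 and D10 to D14 within LFC was larger than the diet difference of the 2 later pairs.

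Skeletal muscle and nerve sheath genes were on the same 2 arrays. The mean of 14 muscle genes was 0.70 and -0.55 on LFC D6 and D10, and between -3.10 and -2.32 on the other 6 arrays. Myh4, the myosin of fast muscle fibres, was at 1.92 and 0.40 on those 2 arrays and between -7.99 and -4.45 on the other 6. The Schwann cell and myelin mean was 1.01 and -0.02 there and between -2.49 and -1.68 elsewhere. Leukocyte lists split the pair of arrays. The B cell mean was -0.93 on LFC D6 and -3.71 on LFC D10, and the T and NK cell mean was -0.06 and -2.31, so that lymphocyte genes were high on LFC D6 alone, while their HFC means lay between -4.36 and -2.95 and between -1.94 and -1.70.

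Epididymal genes divided the arrays in another way, because LFC W0 was low in them as well. Crisp1, a sperm-coating protein secreted by the epididymis, was at -6.15, -7.05, 5.87 and -5.96 in LFC and at 3.16, 4.89, 5.32 and 5.06 in HFC. It was not well above background on LFC D6 and D10, low but well above background on LFC W0, and bright on LFC D14 and on all HFC arrays, where it was saturated at D14 and W0. The mean of 15 epididymis and accessory gland genes was -6.30, -6.65, 0.94 and -6.27 in LFC and between -1.35 and 1.37 in HFC. Well above background were 2 of the 15 on LFC D6 and on LFC D10, 12 on LFC D14 and 9 on LFC W0, and between 12 and 15 on the HFC arrays. Only 1 of the 15, Svs5 of the seminal vesicle, was higher in HFC in 4 of 4 pairs. The median difference was 4.98, 7.40, -1.19 and 6.19 at D6, D10, D14 and W0. Krt5, a keratin of basal epithelial cells, was at -3.18, -3.62, 1.64 and -6.27 in LFC and between 1.06 and 2.32 in HFC, again low on the same 3 LFC arrays.

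The promoters of 5 genes are given here because they carry the 2 patterns the 4 pairs show. Gtsf1, Lypd4 and Cypt3 were higher in HFC in all pairs, as described next. Ucp1 set the D6 and D10 pairs apart, and Crisp1 the D14 pair. Each run is 300 bases of the RefSeq promoter table for GRCm38.p6, mostly upstream of the gene start, 5′ to 3′ on the strand of the gene. Capitals mark a match to GTTGCC, a core of the X-box bound by RFX factors, or to TATAAA, the TATA box. Both strands were searched for these letters, the marked matches do not overlap, and a match describes letters only.
Gtsf1 (GRCm38.p6, chr15:103430378-103430677, minus strand): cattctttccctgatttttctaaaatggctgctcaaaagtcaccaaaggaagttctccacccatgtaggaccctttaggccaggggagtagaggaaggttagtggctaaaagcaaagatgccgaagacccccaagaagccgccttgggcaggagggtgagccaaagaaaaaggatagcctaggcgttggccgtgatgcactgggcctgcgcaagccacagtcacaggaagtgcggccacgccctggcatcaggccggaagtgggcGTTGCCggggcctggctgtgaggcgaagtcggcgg
Lypd4 (GRCm38.p6, chr7:24869642-24869941, minus strand): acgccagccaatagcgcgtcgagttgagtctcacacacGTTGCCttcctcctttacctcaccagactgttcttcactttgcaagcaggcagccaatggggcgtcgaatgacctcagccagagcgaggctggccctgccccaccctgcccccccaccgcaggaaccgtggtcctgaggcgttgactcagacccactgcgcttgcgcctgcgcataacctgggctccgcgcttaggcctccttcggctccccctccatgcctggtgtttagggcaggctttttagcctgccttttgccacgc
Cypt3 (GRCm38.p6, chrX:153558343-153558642, plus strand): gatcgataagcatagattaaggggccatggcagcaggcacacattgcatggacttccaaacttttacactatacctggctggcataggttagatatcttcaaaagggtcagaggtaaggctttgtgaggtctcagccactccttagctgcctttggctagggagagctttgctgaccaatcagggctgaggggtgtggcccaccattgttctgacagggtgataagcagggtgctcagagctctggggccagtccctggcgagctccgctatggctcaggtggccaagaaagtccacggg
Ucp1 (GRCm38.p6, chr8:83290098-83290397, plus strand): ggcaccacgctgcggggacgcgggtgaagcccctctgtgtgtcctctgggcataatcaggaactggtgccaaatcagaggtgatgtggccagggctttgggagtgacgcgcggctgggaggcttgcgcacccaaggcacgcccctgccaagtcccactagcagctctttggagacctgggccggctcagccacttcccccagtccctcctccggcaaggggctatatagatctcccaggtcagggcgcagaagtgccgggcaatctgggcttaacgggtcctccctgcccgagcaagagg
Crisp1 (GRCm38.p6, chr17:40319158-40319457, minus strand): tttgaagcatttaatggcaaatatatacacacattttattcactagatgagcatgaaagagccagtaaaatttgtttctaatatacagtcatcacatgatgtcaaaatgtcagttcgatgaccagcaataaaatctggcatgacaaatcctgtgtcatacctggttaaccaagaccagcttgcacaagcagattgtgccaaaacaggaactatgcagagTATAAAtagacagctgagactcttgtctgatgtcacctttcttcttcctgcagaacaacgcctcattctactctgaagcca
GTTGCC was in the promoters of 49 of the 247 genes with a promoter entry among those at least 2-fold higher in HFC in all pairs (19.8%), and in 14.8% of promoters of all tested genes and 14.1% of all promoters in the table. It was in 10 of 60 promoters (16.7%) of the genes at least 2-fold lower in HFC in all pairs, and in none of the 11 promoters matched for the list of testis and sperm genes. TATAAA was in 12.1% of the promoters of the higher genes and 23.3% of those of the lower genes, against 11.5% for all tested genes and 15.7% for all promoters. The cAMP response element TGACGTCA was in 1.21% of the promoters of the higher genes, against 2.94% for all tested genes and 2.03% for all promoters.

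Agreement over the 4 pairs was counted probe by probe. In 4 of 4 pairs, 518 probes were at least 2-fold higher in HFC (1.63% of the 31857 probes with values in all pairs) and 130 were at least 2-fold lower (0.408%). Of the 518, 258 were well above background on no LFC array and 473 on all 4 HFC arrays, and 32 were well above background on all 8. In the same order, the counts were 1411, 28287 and 23500 of all 32751 probes tested, and 0, 56 and 54 of the 130 lower probes. No probe passed the limma threshold of 0.05 after Benjamini-Hochberg adjustment (0% of 32751, smallest adjusted p = 0.077). At an unadjusted limma p under 0.05, 1964 probes were higher (6%) and 2035 lower (6.21%) in HFC. The methods' t-test, run here across time points on the same values, also left 0 probes after adjustment. The paper ran it on replicates within a time point, to choose among probes of a gene. Without the time point as a block, limma passed 30 probes, all of them higher in HFC. With another background correction (normexp, then the same percentile shift), which moved the median of all probes to -0.51, 12 probes were at least 2-fold higher in all pairs and 2738 lower. The methods' t-test kept 559 probes at its unadjusted threshold that were also at least 2-fold apart in all pairs, 475 higher and 84 lower.

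The 12 genes described next had the largest smallest difference over the pairs with HFC higher. They were chosen for that difference, so their values are a description, and 13 symbols of unannotated genes that ranked among them were passed over. Gtsf1, a factor of the piRNA pathway that silences transposons in germ cells, was at -7.11, -6.66, -6.24 and -6.82 in LFC and at -1.09, -0.70, 0.44 and -2.37 in HFC. This probe was well above background on no LFC array. A brighter Gtsf1 probe was well above background on LFC D14 and W0, and was at -5.10, -7.22, -4.99 and -6.21 in LFC and at -0.20, 0.55, 1.35 and -1.89 in HFC. On both probes the LFC values lay below all HFC values. Adam2, the sperm surface protein fertilin beta, was at -7.05, -7.02, -8.21 and -8.01 in LFC and at -2.34, -0.82, -1.11 and -3.99 in HFC. Since no LFC array measured it well above background, it was at least 28.0-fold higher in HFC. The bound takes, on each LFC array, at least the lowest level well above background. Cst9, a cystatin of the fetal testis, lay at -7.08, -7.42, -6.55 and -8.60 in LFC and 0.36, 2.72, -0.56 and -4.24 in HFC, at least 84.1-fold higher in HFC. Limma adjusted p-values were 0.095 for Adam2 and 0.13 for Cst9. They rest on the LFC background levels and do not test the bounds. Both probes entered the test through their HFC arrays alone.

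Other genes of the 12 had the same form. Cypt3, a protein of the perinuclear theca of sperm, was at -7.17, -7.49, -7.17 and -8.63 in LFC and at -2.54, -3.28, -0.18 and -3.07 in HFC, at least 26.3-fold higher. Lypd4 was at -6.66, -6.74, -6.44 and -6.94 in LFC and at -2.09, -1.98, -0.79 and -3.05 in HFC, at least 21.2-fold higher. Scp2d1 and Spata16, a gene needed to form the sperm acrosome, were at least 21.7-fold and at least 12.8-fold higher, though the Spata16 difference turned to -0.32 with normexp and the percentile shift. Gykl1, a glycerol kinase-like gene, Adam5, Syce3 of the synaptonemal complex, Adad1 and Pabpc2 were read by probes that, of the LFC arrays, were well above background on D14 and, for Pabpc2, also on W0, with differences of 5.83, 4.79, 5.37, 4.45 and 5.22 that rest on LFC levels mostly not well above background. Another Pabpc2 probe, well above background on all 8 arrays, differed by 0.44. A second Adam5 probe differed by 3.15, and by 0.77 in its closest pair, and a second Adad1 probe by 3.09. Second probes of Syce3, Spata16 and Scp2d1 differed by 5.07, 5.36 and 5.19. On the probes that ranked these 12 genes all 4 HFC values lay above all 4 LFC values, and the lowest HFC array was W0 in all but Cypt3.

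**Figure D2:**
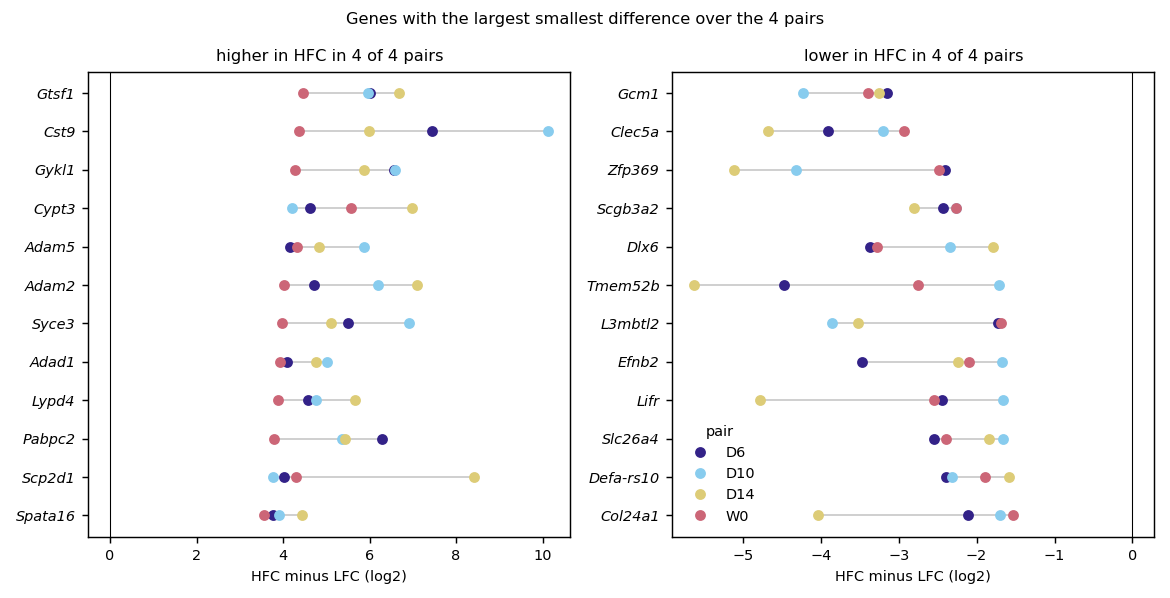
HFC minus LFC difference in level (x axis, log2) of the 12 genes named in each direction (y axis), each by the probe that ranked it, with 1 point per pair coloured by time point and a grey line over their range. The 4 differences of Gtsf1 lie between 4.46 and 6.68, and those of Lifr between -4.78 and -1.67.

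The list of testis and sperm genes, 12 of 12 tested, had 7 members higher in HFC in 4 of 4 pairs (9.45% of all probes) and none lower in all 4, and 4 members at least 2-fold higher in all pairs (1.63% of all probes). All 12 were higher in HFC at both D14 and W0, against 24% of all probes. In those 2 pairs the median difference was -0.20 and 1.04 for mesothelial genes and 0.80 and 0.62 for visceral genes. The median difference of the list was 0.50, 1.98, 3.73 and 2.29 at D6, D10, D14 and W0, where that of all tested probes was -0.11, -0.15, -0.04 and 0.00. Over the pairs its median was 2.23, and 0.35 with normexp and the percentile shift, against -0.51 for all probes there. Pgk2, the phosphoglycerate kinase of sperm glycolysis, was at -5.31, -4.53, -2.96 and -5.25 in LFC and at -1.18, -1.92, 0.57 and -1.56 in HFC. The difference was 3.49 ± 0.31 (SE, limma adjusted p = 0.086). Smcp, a protein of the sperm mitochondrial capsule, differed by 2.90 ± 0.25 (SE, limma adjusted p = 0.082), from -4.93, -6.18, -1.33 and -3.60 in LFC to -2.38, -3.17, 1.29 and -0.16 in HFC. Ldhc, the lactate dehydrogenase of sperm, was at -6.90, -6.81, -1.60 and -2.92 in LFC and at 2.97, 4.27, 4.01 and 0.55 in HFC. It was higher in HFC by 7.51 ± 1.38 (SE), with the larger differences at D6 and D10. Pgk2, Smcp and Ldhc were not well above background on LFC D6 and D10, so their differences there rest on background levels.

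The protamines, which pack DNA in the sperm head, were less even. Prm1 was at 0.10, -2.89, -0.58 and 0.73 in LFC and at -0.41, 0.31, 4.27 and 2.01 in HFC, so that it was lower in HFC at D6 and higher at the other 3 time points. Prm2 was at -3.42, -4.20, -0.11 and -0.05 in LFC and at -2.86, -1.34, 3.53 and 1.91 in HFC, higher in each pair. Hoxa11, a posterior Hox gene of the reproductive tract, was at -7.02, -5.95, -4.80 and -5.96 in LFC and at -3.06, -3.45, -0.87 and -3.36 in HFC, higher by 3.25 ± 0.37 (SE, limma adjusted p = 0.10), again with LFC D6 and D10 not well above background. It was 1 of 3 of 10 posterior Hox genes that were higher in HFC in 4 of 4 pairs, where 9.45% of all probes were. The part of adjacent epididymis or testis in these differences was not tested. The median difference of the epididymal list was -1.19 at D14, where that of the testis list was 3.73, and at W0 both were positive (6.19 and 2.29).

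Most adipocyte genes were lower in HFC in all pairs. Of 14 tested, 11 were lower in HFC in 4 of 4 pairs (13.9% of all probes) and none was higher in all 4, and 13 were lower at both D14 and W0, where 26.7% of all probes were. The median difference was -1.11 over the pairs and -0.95, -1.22, -1.34 and -0.49 at D6, D10, D14 and W0. Adipoq, which encodes the adipocyte hormone adiponectin, was at 5.33, 3.42, 3.23 and 2.66 in LFC and at 4.2, 1.98, 1.85 and 2.19 in HFC, a difference of -1.10 ± 0.26 (SE, limma adjusted p = 0.31). Plin1, which coats the lipid droplet, was at 3.60, 2.45, 2.06 and 1.86 in LFC and 2.84, 1.23, 0.14 and 1.05 in HFC. Pparg, the master transcription factor of adipocytes, was at 3.96, 5.30, 1.76 and 2.65 in LFC and 2.73, 1.33, 0.41 and 1.82 in HFC. Lep, the satiety hormone leptin, was an exception, with a difference of 0.55. Fabp4 was saturated on all 8 arrays and Cfd on 2, and among the 12 members never saturated 9 were lower in HFC in 4 of 4 pairs.

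Several genes of fatty acid synthesis were lower as well. Of 15 tested, 8 were lower in HFC in 4 of 4 pairs (13.9% of all probes) and none was higher in all 4, with a median difference of -1.09 and of -1.46, -0.74, -1.31 and -0.25 at the 4 time points. Scd1, which makes monounsaturated fatty acids, was at 5.64, 4.26, 4.92 and 4.06 in LFC and at 4.14, 2.47, 2.79 and 2.89 in HFC. The LFC array was the higher of each pair by more than 1 log2 unit, and the difference was -1.65 ± 0.25 (SE, limma adjusted p = 0.16). Thrsp, a nuclear protein of lipogenic tissue, was at 5.25, 4.40, 2.91 and 2.22 in LFC and 2.65, 0.75, 0.75 and 1.58 in HFC, with a difference of -2.26 ± 0.52 (SE). Acly, Acaca and Fasn, the enzymes from citrate to palmitate, differed by -1.57, -1.14 and -1.29, Fasn being saturated on 3 arrays. Srebf1, which encodes the transcription factor SREBP1, differed by 0.03 and was higher in HFC in 2 of 4 pairs.

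**Figure D3:**
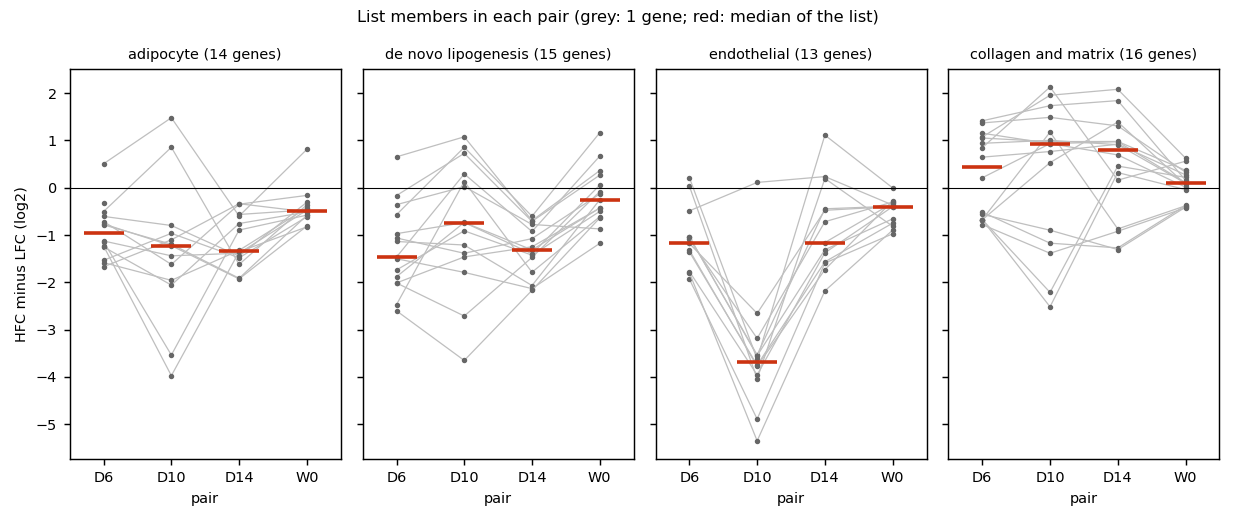
HFC minus LFC difference in level (y axis, log2) of each tested member of 4 lists in each of the 4 pairs (x axis), where a point and grey line are 1 gene and a red bar is the list median. Most adipocyte and endothelial genes lie below 0 in every pair, with list medians over the pairs of -1.11 and -1.35, against -1.09 for de novo lipogenesis and 0.60 for collagen and matrix.

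Endothelial genes followed the same direction. Of 13 tested, 9 were lower in HFC in 4 of 4 pairs (13.9% of all probes) and none was higher in all 4, with median differences of -1.16, -3.69, -1.16 and -0.40. Gpihbp1, which carries lipoprotein lipase to the capillary wall, was at 6.29, 7.12, 3.34 and 4.62 in LFC and at 4.49, 1.77, 1.16 and 3.73 in HFC, a difference of -2.56 ± 0.77 (SE). Flt1, a receptor of vascular endothelial growth factor, was at 5.82, 7.57, 3.75 and 4.19 in LFC and 3.89, 2.69, 2.16 and 3.22 in HFC. Both were highest on LFC D10, one of the arrays with brown fat genes. The share of the adipocyte, lipogenesis and endothelial differences that went with the brown fat, muscle and nerve markers was not tested. At D14 and W0, where the brown fat medians were -0.41 and -0.73, the medians over those 2 pairs were -0.87 for adipocyte, -0.80 for lipogenesis and -0.74 for endothelial genes.

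Genes of the extracellular matrix were mostly higher in HFC. Of 16 collagen and matrix genes, 9 were higher in 4 of 4 pairs (9.45% of all probes) and 3 (Col1a2, Col3a1 and Sparc) lower, but all 3 lower ones were saturated on 4 or more arrays. Among the 12 never saturated, 9 were higher in 4 of 4 pairs and none lower. Fbn1, the microfibril protein fibrillin, was at 1.39, 1.16, 1.04 and 3.24 in LFC and at 2.47, 3.11, 3.12 and 3.87 in HFC, higher by 1.43 ± 0.33 (SE, limma adjusted p = 0.31). Col6a1, a chain of the collagen around adipocytes, was at 2.20, 1.44, 2.30 and 3.77 in LFC and at 3.57, 2.93, 3.61 and 4.09 in HFC. The W0 pair was the closest for both genes. Fn1, which encodes fibronectin, was higher by 1.29 ± 0.36 (SE). Complement genes had 5 of 11 members higher in 4 of 4 pairs (Cfb, C1ra, C1s1, Serping1 and C2), where 9.45% of all probes were, and none lower, with medians of 1.14, 2.10, 0.22 and -0.09. C1s1, a protease of the first complement component, was at 1.97, 1.79, 2.96 and 3.68 in LFC and 3.30, 4.12, 3.77 and 4.12 in HFC.

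Macrophage genes, which the labels name as the material, were measured on all arrays but did not separate the diets in the same direction in all 4 pairs. All 18 general macrophage genes were tested, with a mean level between 1.38 and 2.75 in LFC and between 1.81 and 2.65 in HFC. None was higher or lower in HFC in 4 of 4 pairs, and the median difference was 0.38, 1.04, 0.75 and -0.44. Higher in HFC were 16, 13 and 17 members at D6, D10 and D14, and 0 at W0, where 14 of the 18 had values in all 4 pairs. The W0 pair thus went against the other 3 for the list as a whole. Adgre1, the F4/80 antigen, was at 2.57, 1.87, 2.29 and 3.36 in LFC and 2.91, 2.99, 3.57 and 2.90 in HFC, higher in HFC in 3 of 4 pairs and lower at W0. Tnf, an inflammatory cytokine of macrophages, showed the same order, at -0.13, 0.55, 0.19 and 2.73 in LFC and 2.71, 1.75, 1.93 and 2.34 in HFC. Of 13 inflammatory genes tested, 2 were higher in 4 of 4 pairs: Ptgs2, the inducible prostaglandin synthase, by 1.55 ± 0.50 (SE) and Il18, an interleukin, by 1.05 ± 0.28 (SE). That share is near the 9.45% of all probes. Of 12 genes of lipid-associated macrophages, 5 were lower in all pairs (Fabp5, Lipa, Plin2, Cd36 and Apoe) and 1, Lgals3, higher, where 13.9% and 9.45% of all probes were. Apoe was saturated on 4 arrays (HFC D6, HFC D14 and both of W0), and among the 11 members never saturated 4 were lower in all pairs. The lipid carriers Fabp5 and Cd36 are also made by adipocytes and endothelium. Fabp5 was at 1.69, 0.78, -1.24 and -0.36 in LFC and at 0.33, -1.57, -2.61 and -0.93 in HFC.

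Among single genes lower in HFC in every pair, Lifr and Efnb2 were measured on all 8 arrays. Lifr, the receptor of leukemia inhibitory factor, was at 2.88, 0.67, 4.16 and 3.52 in LFC and at 0.44, -0.99, -0.62 and 0.98 in HFC, a difference of -2.86 ± 0.55 (SE, limma adjusted p = 0.23). This was 1 probe, and the other 5 Lifr probes, each well above background on all 8 arrays, differed by -0.62 to -0.09. Efnb2, the ligand ephrin-B2 of arterial endothelium, was at 0.39, -1.37, -1.43 and -1.09 in LFC and at -3.09, -3.05, -3.66 and -3.19 in HFC, with no overlap between the diets. A brighter Efnb2 probe differed by -0.91, lower in HFC in each pair. Gcm1, a transcription factor best known from placenta, had the largest smallest difference, from -2.09, -4.78, -4.91 and -3.32 in LFC to -5.24, -9.01, -8.16 and -6.72 in HFC, where it was well above background on 2 arrays. Zfp369, Scgb3a2 (a secretoglobin), Tmem52b, L3mbtl2, Slc26a4 (the anion exchanger pendrin), Defa-rs10 and Col24a1 were also measured on all 8 arrays, with differences from -3.64 to -2.05. Other probes of Zfp369, L3mbtl2 and Col24a1 differed by -0.05, -0.12 and 0.07. Dlx6 and 1 probe of Clec5a, a myeloid receptor, were well above background on 1 HFC array each, with differences of -2.70 and -3.68, while a brighter Clec5a probe, well above background on all 8 arrays, differed by 0.51. Limma adjusted p-values for the probes that ranked these 12 genes lay between 0.077 and 0.26.

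Taken pair by pair, D10 had the most probes at least 2-fold apart and W0 the fewest. At D6, 4949 probes were higher (15.1%) and 4139 lower (12.6%) in HFC, and at D10 6459 were higher (20.2%) and 7704 lower (24.1%). At D14, 3775 were higher (11.6%) and 2944 lower (9.01%), and at W0 3240 were higher (9.9%) and 1696 lower (5.18%). With 1 array per diet these counts have no replicate check. The order changed with normexp and the percentile shift, where W0 had 513 higher and 14638 lower, D10 2575 and 11915, and D14 the fewest (1382 and 4805). Among probes well above background on both arrays, the largest D6 differences were Ccdc153 and Tekt1, genes of motile cilia, Krt8 and Rspo1 (6.93, 6.25, 6.40 and 6.27) above, and the major urinary proteins Mup19, Mup1 and Mup10 with Myh4 (-7.38, -7.36, -7.33 and -6.59) below. The Mup genes are near-identical copies, so which copy the probes read is uncertain. At D10 they were Cdh16, Wfdc15b, Sult1e1 and Wfdc6b (9.27, 8.80, 8.72 and 8.51), against Ucp1, Slc49a4 and Nfasc (-10.17, -9.43 and -8.72). LFC D10 stood alone for Slc49a4 and Nfasc, with Nfasc at 3.70 there and at -2.24 or lower on the other 7 arrays.

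At D14 the genes furthest above were Gtsf1, Hils1 (a spermatid histone), Syce1 and Gykl1 (6.34, 6.22, 6.01 and 5.88), all of them known from germ cells, and those furthest below were Adam28 and the epididymal genes Lcn9, Defb48 and Defb25 (-8.03, -7.70, -7.50 and -5.85). On the probe that ranked it, Lcn9, an epididymal lipocalin, was at -7.09, -7.03, 4.40 and -3.67 in LFC and at -2.27, 2.73, -3.30 and -4.33 in HFC. That probe was highest on LFC D14 and HFC D10, and not well above background on LFC D6 and D10 alone. Another Lcn9 probe was well above background on all 8 arrays. At W0 the epididymal genes Rnase12, Crisp1, Defb28 and Spink8 were above (11.09, 11.02, 10.57 and 10.18), all of them saturated on HFC W0, and Klk1b11, Umod, Ptx4 and Fgb below (-5.35, -4.91, -4.34 and -4.14). For these 4, the W0 pair had an LFC array that was the highest of all 8.

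The D6 and D10 pairs resembled each other, and the change from them to D14 and W0 was tested as the interaction of diet with the 2 sets of time points. Across probes, the HFC minus LFC difference of D6 correlated with that of D10 at 0.62, while the other 5 pairings of time points gave 0.14 to 0.31. Probes are not independent replicates, and D6 and D10 also had the dimmest LFC arrays. LFC D6 and LFC D10 correlated with each other at 0.942 and with the other 6 arrays at 0.840 to 0.924. In limma, no probe of 32749 passed the threshold for the interaction (smallest adjusted p = 0.13), and at an unadjusted p under 0.05 the difference was larger at D14 and W0 for 1243 probes (3.8%) and smaller for 1949 (5.95%). In simulated data this fit passed 0 of 50 changed probes even at 6 log2 units. The simulated noise was the spread over all 4 pairs, which counts any real change between the 2 sets as noise. It may thus understate what the fit can find. The lack of probes past the threshold does not show that the differences stayed the same. Gpx5, a glutathione peroxidase secreted by the epididymis, was at -6.02, -5.39, 6.50 and -2.0 in LFC and at 6.02, 6.09, 5.29 and -2.68 in HFC. It was not well above background on LFC D6 and D10 and was saturated on HFC D10 and D14, so the size of its change is not measured. Spag11b, Cst11 and Cstdc2 of the epididymis, and Calml3, Cdh16, Mmp7 and ccdc198, had fitted changes from -12.84 to -9.80, which also rest on LFC levels not well above background at D6 or D10. On the other side stood Mbp of myelin, Gjc3 of Schwann cells, Ckmt2 of muscle mitochondria, Cidea and Ucp1, with changes of 5.80, 5.02, 7.20, 4.68 and 6.90, and H2-Ea, Eya4 and Gabrb2, with 6.25, 4.88 and 4.90. Of these, Cidea and Ucp1 were well above background on all 8 arrays. H2-Ea, a class II antigen gene, was at -2.66, -3.59, -3.16 and -3.32 in LFC and at -8.07, -9.05, -3.25 and -1.59 in HFC. The HFC arrays of D6 and D10 were the low ones, not well above background. The b haplotype of C57BL/6 mice is known for a deletion that stops transcription of this gene.

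The 6 later pairs mostly did not follow the probes higher in HFC in the first 4. In arrays at weeks 3, 6, 9, 12, 15 and 18, which had no part in choosing the probes, 178 of the 440 probes with values in all 6 pairs (40.5%) were on average higher in HFC, against 52.5% of all probes tested. At least 2-fold higher on average were 11 (2.5%), against 3.42%, and at least 2-fold lower were 9, against 0.758%. In all 6 later pairs 1 of the 440 was higher in HFC, as were 315 of the 29833 tested probes with values in all 6. The median of the 518 probes, 2.86, 2.65, 4.51 and 2.50 at D6, D10, D14 and W0, was -0.46, -3.55, 0.07, 2.12, 1.09 and -0.44 at weeks 3 to 18. Of the probes lower in all 4 early pairs, 72 of 93 (77.4%) were higher in HFC on average in the later weeks, with medians of -0.97, 0.50, 0.35, 3.61, -0.01 and -0.68. That average rested on week 12, whose HFC array had 4850 outlier spots and 91.6% of spots well above background. Without week 12, a choice made after seeing the data, 51 of 129 (39.5%) were higher, against 47.4% of all probes tested, as were 60 of 517 (11.6%) of the probes higher in the early pairs. Over the 6 later weeks the probes given above for Gtsf1 and Lifr had mean differences of 0.47 and 1.25. The test of the first 4 pairs against the later 6 left no probe of 31203 past the threshold (limma, smallest adjusted p = 0.44), and 2358 at an unadjusted p under 0.05.

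**Figure D4:**
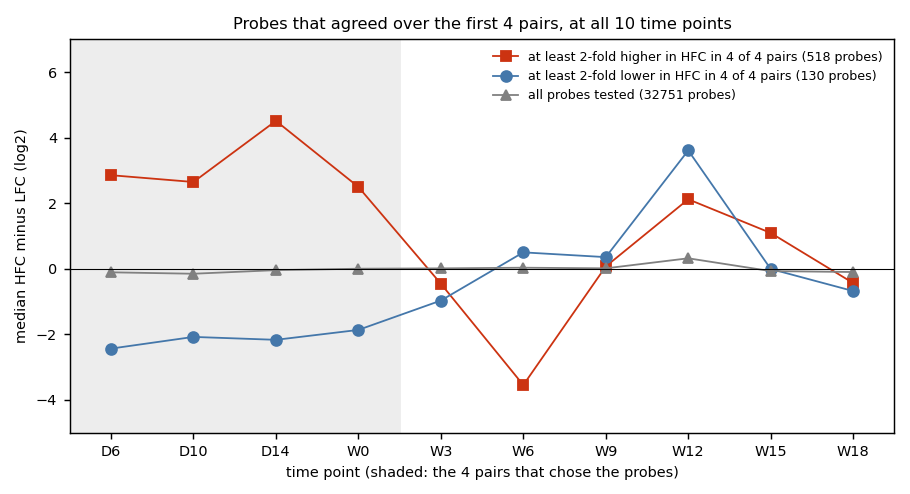
Median HFC minus LFC difference (y axis, log2) at each of the 10 time points (x axis) for the probes at least 2-fold higher in HFC in all 4 early pairs, those at least 2-fold lower, and all probes tested, with the 4 pairs that chose the probes shaded. The first set lies between 2.50 and 4.51 in the early pairs that chose it and between -3.55 and 2.12 at weeks 3 to 18.

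Stress and proliferation lists showed smaller differences. Of 9 heat shock genes tested, 5 were lower in HFC in 4 of 4 pairs (13.9% of all probes, median -0.59), among them the chaperones Hsph1 and Hsp90ab1. Of 16 immediate early genes, 3 were lower in all pairs, a share near that of all probes (13.9%), all of them saturated on some array, and 0 of the 7 never saturated were. The cell cycle list had a median difference of 0.01 and the stromal progenitor list 0.14. Mural and smooth muscle genes had a median of -0.07 and the interferon response -0.22. Erythroid genes, which read red blood cells left in the tissue, had a median of -1.31, from -1.58 and -2.50 at D6 and D10 to 0.68 and -2.02 at D14 and W0. Genes of liver and pancreas had medians of -0.62 and -0.20.

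Across the 4 pairs, results that rest on a single time point can be read from the counts without it. Without D10, which holds the array with Xist signal and the outlier marks, 737 probes were at least 2-fold higher in all remaining pairs and 278 lower. The higher count moved most without D14 and the lower count most without W0, as given in the last section. Without D6 the counts were 590 and 158. With D14 and W0 alone they were 1178 and 554, and with D6 and D10 alone 3134 and 2338, where agreement over 2 pairs is a looser rule than over 4. Where only probes well above background on all 8 arrays were kept, 32 were at least 2-fold higher and 54 lower in all pairs, so that the surplus of higher probes lay among those not well above background on every array.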

How the data were processed

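Arrays were 1-colour Agilent mouse arrays (Cy3), 1 per diet and time point. Per the file headers, the authors deposited intensity values made by Feature Extraction 10.5.1.1: the software subtracted background from each spot's intensity and detrended it, and nothing was scaled between arrays. The authors' own table of fold changes and the arrays of the botanical formulation were not used. Depth has no equivalent here, and the number of arrays limits the precision.

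From the processed signal of 43803 non-control spots, outlier spots were left out, saturated spots were kept at their value, the log2 75th percentile of the array was subtracted, and spots of a probe were averaged. Of 40628 probes, 28136 (69.3%) were named through accessions of a RefSeq gene table (GRCm38.p6), which updated 3897 symbols. The array design is of build mm9, so only the promoter table's own coordinates are printed. Each list gene is given by its probe of highest mean level over the 8 arrays, and each gene named for its difference by the probe that ranked it.

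Diets were compared in R 4.3.3 by linear models in limma 3.58.1 with moderated variances (two-sided), with the time point as a block (the replicate block) and Benjamini-Hochberg adjustment over all probes tested, at a threshold of 0.05. The numbers that pair the samples are the labelled time points. Both arrays of each pair were scanned on 1 day, and deviations of the 2 arrays of a time point from their diet means correlated across probes at 0.56, -0.07, 0.26 and 0.34 at D6, D10, D14 and W0. The D6 and D10 pairs also shared a slide, while the arrays of D14 and W0 lay on 1 slide each. A gene not well above background on any array of a diet is given a bound. The bound sets the mean of the brighter diet against the dimmer diet's mean of, per array, the higher of the lowest level well above background and the probe's own level.

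Genes named are, first, the 12 in each direction with the same sign in all pairs and the largest smallest difference. Next come the 8 in each direction with the clearest gap between the D6 and D10 pairs and the D14 and W0 pairs, and the 4 in each direction with the largest difference at each time point, all by well above background calls. Last come members of 43 gene lists, from which those described were taken. Symbols of unannotated genes (predicted loci, clone names) were passed over. Some genes that this rule names are not reported here. A list mean is the mean level of its measured genes, tested or not, while list medians and counts over the pairs take the tested genes. Members and lists were chosen with earlier results of these data known, and no list was tested. The fits were tested on simulated data with 50 changed probes of each size and noise from the spread of each probe over all 4 pairs. For HFC minus LFC, 0, 12, 29 and 41 of 50 passed the threshold at changes of 1, 2, 4 and 6 log2 units. For D6 and D10 against D14 and W0, 0 of 50 passed at each size. Alternatives covered scaling, background correction, filters, thresholds, the block, array brightness, the probe for a gene and each time point left out.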

Additional observations from a re-analysis of the deposited data

Results flagged for a closer look

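Chance marks about 1 in 20 groups by the gap rule used here, which would be 4.5 of the 90 groups of 4 arrays checked, and 3 were marked. The mean level of epididymis and accessory gland genes was 0.94 on LFC D14, far from the other 3 LFC arrays, which lay between -6.65 and -6.27. The mean of matrix metalloproteinases and their inhibitors was -0.47 on LFC D14, where the other 3 LFC arrays lay between 0.31 and 0.40. The mean of circadian clock genes was -1.63 on LFC D6, where the other 3 LFC arrays lay between -1.17 and -1.08.

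The median differences of 2 lists had opposite signs in the 2 sets of time points, positive in both the D6 and D10 pairs and negative in both the D14 and W0 pairs. For anterior Hox genes, which pattern the front of the body, the HFC minus LFC difference was lower by 0.48 in the later set (-0.48). For stromal progenitor genes it was lower by 0.18 (-0.18). The difference between the sets was not tested for either list.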

How the results depend on the processing

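Scaling, background correction and the filter changed both counts and directions. With normexp and the 75th percentile shift, which moved the median difference of all probes to -0.51, 9054 probes passed the limma threshold for HFC minus LFC and 1 passed for D6 and D10 against D14 and W0. At least 2-fold higher in all pairs were then 12 and lower 2738, so that 0.436% of these calls were higher, against 79.9% in the setting reported. At D6, D10, D14 and W0 the counts higher were 1177, 2575, 1382 and 513, and lower 8269, 11915, 4805 and 14638. List medians there were -1.29 for dendritic cell, -0.46 for anterior Hox, 0.35 for testis and sperm, -1.58 for liver and -1.21 for pancreas genes, and Spata16 turned to -0.32. With normexp and quantile normalization, 44 probes were higher and 15 lower in all pairs. The counts by time point were 1958, 3977, 1395 and 769 higher and 1335, 3053, 865 and 493 lower, with medians of -0.60 for adipocyte and -0.52 for subcutaneous genes. Quantile normalization gave 0.12 for lipid-associated macrophage, -0.66 for adipocyte and 0.30 for stromal progenitor genes, and the percentile over probes well above background on all 8 arrays gave 0.26 for the last. With outlier spots kept it was 0.014. Keeping probes well above background on all arrays left 32 higher and 54 lower (37.2% higher), by time point 1960, 3222, 1490 and 765 higher and 2540, 4951, 1531 and 662 lower. The median was then -0.55 for pancreas genes, while of the subcutaneous list Sfrp2 alone was left (1.06). With no filter 222 were lower in all pairs, and 6833, 13474 and 7570 lower at D6, D10 and D14. The cause of these shifts was not tested.

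Without the replicate block, 30 probes passed the threshold, all of them higher in HFC and at least 2-fold higher in all pairs, where 0 passed with it. With the brightness of the array as a covariate 0 passed, and 1329 did at an unadjusted p under 0.05. Leaving out 1 time point in turn gave 590 to 990 probes at least 2-fold higher (990 without D14, 865 without W0) and 158 to 692 lower (692 without W0, 278 without D10, 208 without D14), and for the first 4 pairs against the later weeks 0 to 1 probe past the threshold, the 1 being without week 6. D14 and W0 alone gave 1178 higher and 554 lower, with medians of -0.064 for fatty acid oxidation, -0.47 for subcutaneous and 0.011 for stromal progenitor genes. D6 and D10 alone gave 3134 and 2338, with -2.39 for brown fat, 3.41 for visceral, -2.53 for subcutaneous, 0.64 for anterior Hox and -2.96 for skeletal muscle genes. At 1.5-fold 792 were higher and 455 lower, and at 4-fold 190 and 18. The share of the 2-fold higher probes that were higher in the later weeks was 22.7% with quantile normalization 26.7% with probes well above background on all arrays and 11.6% without week 12 (40.5% as reported), and that of the lower ones that were lower was 41.1% with quantile normalization and 60.5% without week 12 (22.6% as reported). Leaving out week 12 was chosen after seeing the data. Another 485 values stayed near those reported. For counts this means within 1.5-fold, and for shares within a binomial interval of the reported share. List medians moved by less than their spread over the pairs, within which a sign could change. The alternative with the authors' ratios was not run, because that table holds their own comparisons. Signal over background limits most of the probes higher in all pairs.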
